A study of Mus musculus with 29 samples.

Results

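The 9 genes described here encode complexins (*Cplx1*, *Cplx2*, *Cplx3*, *Cplx4*), syntaxins (*Stx1a*, *Stx3*), SNAP-25 (*Snap25*) and synaptobrevins (*Vamp1*, *Vamp2*). They were chosen by gene symbol, and all 9 were found once among the 24062 genes of the RNA-seq table. RNA was measured in 15 libraries of sorted cells from adult mouse retina, 3 from each of 5 populations. All bipolar cells (pan-BC) came from *Otx2*-GFP+/- mice at postnatal day 44 to 47. ON bipolar cells (ON-BC) and OFF bipolar cells (OFF-BC) came from *Otx2*-GFP+/-; *Grm6*-YFP+/+ mice at day 42 to 48. Rods came from *Nrl*-eGFP mice and blue cones from *Nrl*-eGFP; *Nrl*KO mice, both at day 56. Every bipolar library thus came from animals with GFP placed in 1 copy of *Otx2*. YFP was driven by the *Grm6* promoter, which is active in ON-BC, and OFF-BC were GFP-positive cells without strong YFP that were sorted a second time. Each bipolar library pooled retinas, from 1 mouse for pan-BC and from more than 1 for ON-BC and OFF-BC. The blue cones are photoreceptors of retinas without the rod factor NRL, so they are a model of S-cones and not cones of a normal retina. The rod and blue cone data were taken over from previous work of this laboratory. Cell class, study, age and mouse genotype cannot be told apart in any comparison of bipolar cells with photoreceptors. Chromatin accessibility was measured by ATAC-seq in 2 libraries from each of the same 5 populations and from green cones of *Opn1mw*-GFP mice, with the pan-BC of this assay labelled *Otx2*-GFP+/-; *Grm6*-YFP+/+. The mice of this assay were at postnatal day 44 and 43 for pan-BC and 42 and 46 for ON-BC and OFF-BC. They were at day 56 for rods, blue cones and green cones.

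SNARE proteins drive the fusion of synaptic vesicles. Synaptobrevin sits on the vesicle, syntaxin and SNAP-25 on the plasma membrane, and their helices zip into a complex that pulls the membranes together. Complexins bind the assembled complex and hold it in a state ready for calcium. Photoreceptors and bipolar cells release glutamate continuously at ribbon synapses, where syntaxin 3 and the complexins 3 and 4 are known to take the place that syntaxin 1 and the complexins 1 and 2 have at conventional synapses.

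RNA-seq libraries held 12329548 to 26266746 counted reads, and ATAC-seq libraries 4176776 to 12345845. Values are counts divided by 1 size factor per library, called normalized counts here, and they are compared between genes only per kilobase of exon. Replicates are separate samples of 1 population, so a p-value measures the spread between these samples. The labelled cell types were checked against marker genes. The summed level of 12 bipolar markers was 227238 to 270192 in the bipolar libraries, 33447 to 38833 in blue cones and 8447 to 9581 in rods. *Cabp5* made up a mean of 27234 of the blue cone sum. *Otx2*, which photoreceptors also express, made up a mean of 7202 of the rod sum and 7034 of the blue cone sum. *Grm6*, the glutamate receptor of ON-BC, had a mean of 268 in OFF-BC and 13499 in ON-BC. Markers of photoreceptors were present in bipolar libraries at lower levels than in photoreceptors. The summed level of 7 rod markers was 25748 to 26955 in pan-BC, 11422 to 16384 in OFF-BC and 22976 to 26622 in ON-BC, against 687366 to 966303 in rods. The summed level of 8 cone markers was 44754 to 70999 in pan-BC, 29991 to 104776 in OFF-BC and 5120 to 5912 in ON-BC, against 1501640 to 1726195 in blue cones. The third OFF-BC library stood apart in the S-cone opsin gene *Opn1sw*, with 55813 against 4477 and 4314 in the other OFF-BC libraries. It also had the highest OFF-BC value of *Cplx1*, *Cplx2*, *Cplx4*, *Stx3* and *Vamp2*, and the first library had that of *Cplx3*, *Stx1a*, *Snap25* and *Vamp1*. Without the third library 0 members were called between ON-BC and OFF-BC, as with it, and the log2 difference of *Cplx4* was 1.30 in place of 1.19. The part of cone RNA in these values was not tested. Markers of horizontal cells, of Muller glia and of microglia and vessels summed to at most 119, 3158 and 213.5 in any library.

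**Figure D1:**
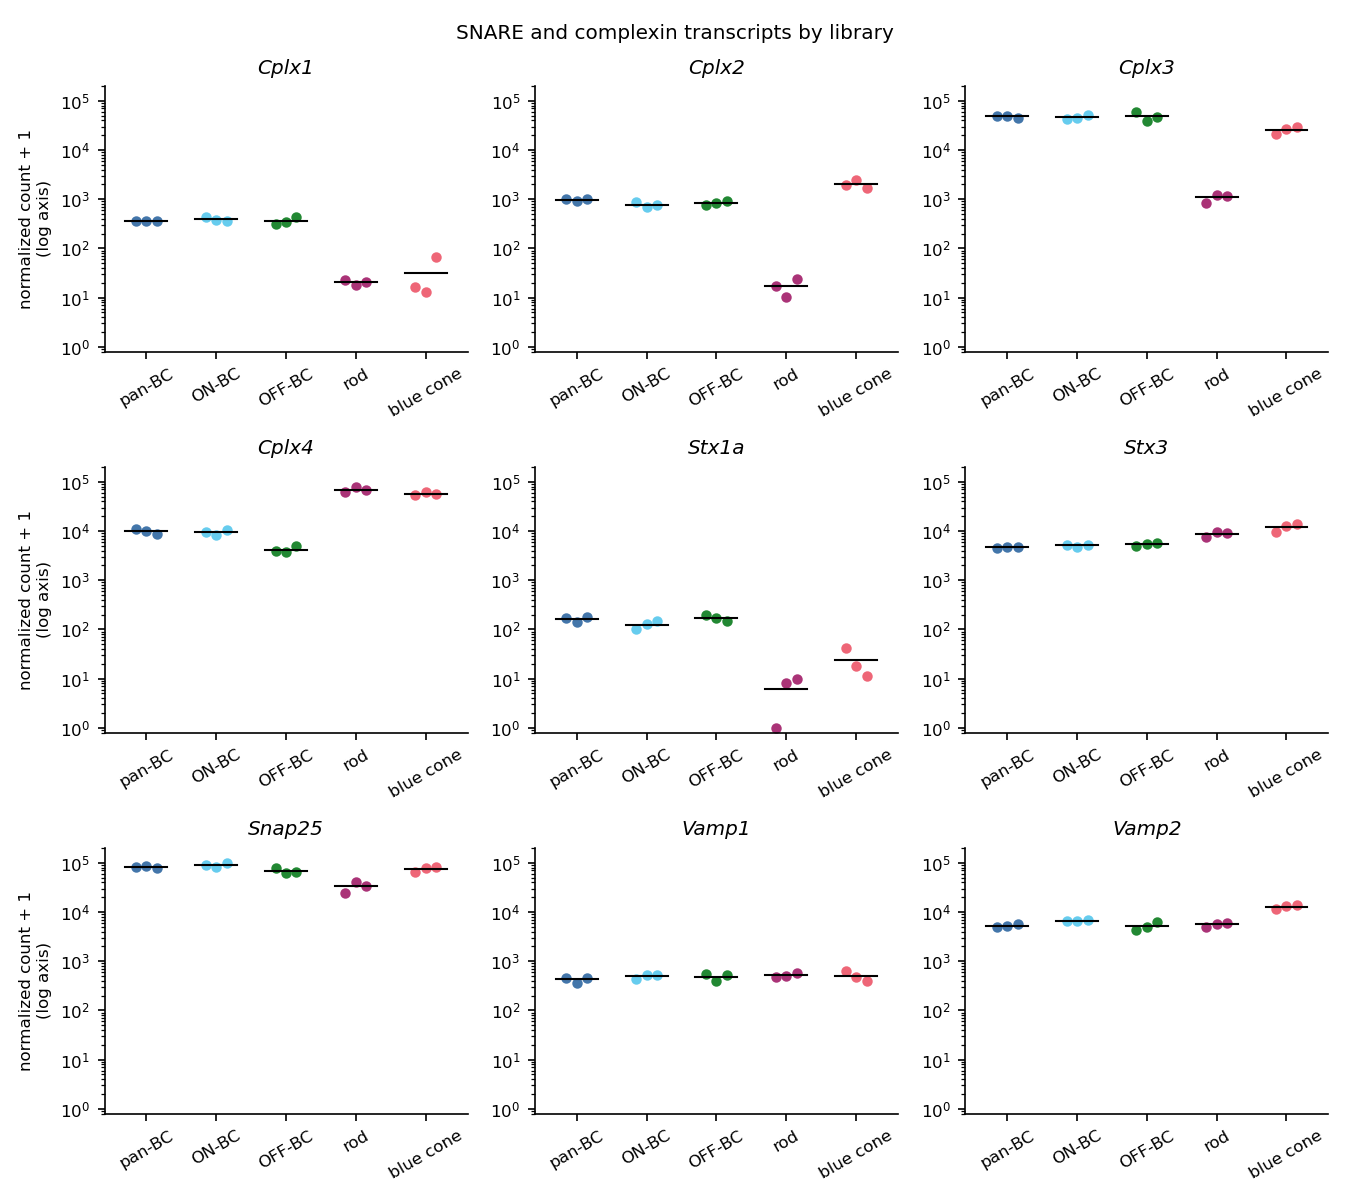
Normalized count plus 1 of each member on a log axis, 1 panel a gene, with 3 libraries (points) and their mean (line) for each of 5 populations. *Cplx1* and *Stx1a* sit high in the 3 bipolar populations and low in both photoreceptors, *Cplx2* and *Cplx3* are low in rods only, *Cplx4* is highest in both photoreceptors, and *Vamp1* is level across the plot.

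Between pan-BC and rods, 5 of the 9 members were called different, which means an adjusted p below 0.05 in limma's test against a log2 fold change of 1. *Cplx1*, *Cplx2*, *Cplx3* and *Stx1a* were higher in pan-BC and *Cplx4* was higher in rods. Of all 14024 genes tested, 43.6% were called in this comparison, 27.8% as higher in pan-BC and 15.8% as higher in rods. Between pan-BC and blue cones 4 members were called, *Cplx1* and *Stx1a* as higher in pan-BC and *Cplx4* and *Stx3* as higher in blue cones, against 36.3% of all genes (22.7% higher in pan-BC and 13.7% higher in blue cones). No member was called between ON-BC and OFF-BC by limma, and none by edgeR or DESeq2, with 0 at an unadjusted p under 0.05 in limma's test and 1 (*Cplx4*) called against a log2 fold change of 0. Of all genes 6.55% were called there against 1, 2.95% higher in ON-BC and 3.60% higher in OFF-BC, and 3783 of 14024 against 0. *Cplx2* and *Cplx3* were called between rods and blue cones, both higher in blue cones, where 15.9% of all genes were called, 4.63% as higher in rods and 11.3% as higher in blue cones. Of the 9 members, 8, 7, 3 and 6 had ranges that did not overlap between the 2 populations in the 4 comparisons in this order, and of all genes 83.7%, 78.4%, 42.2% and 60.9% did. The median log2 difference of the 9 members was 1.35 between pan-BC and rods (0.21 over all genes), -0.24 between pan-BC and blue cones (0.16), 0.04 between ON-BC and OFF-BC (-0.02) and -1.20 between rods and blue cones (0.00). The comparisons share libraries, since pan-BC stand in 2 of them and so do rods and blue cones. In bulk samples such as these, fewer cells of a type and less RNA per cell cannot be told apart.

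**Figure D2:**
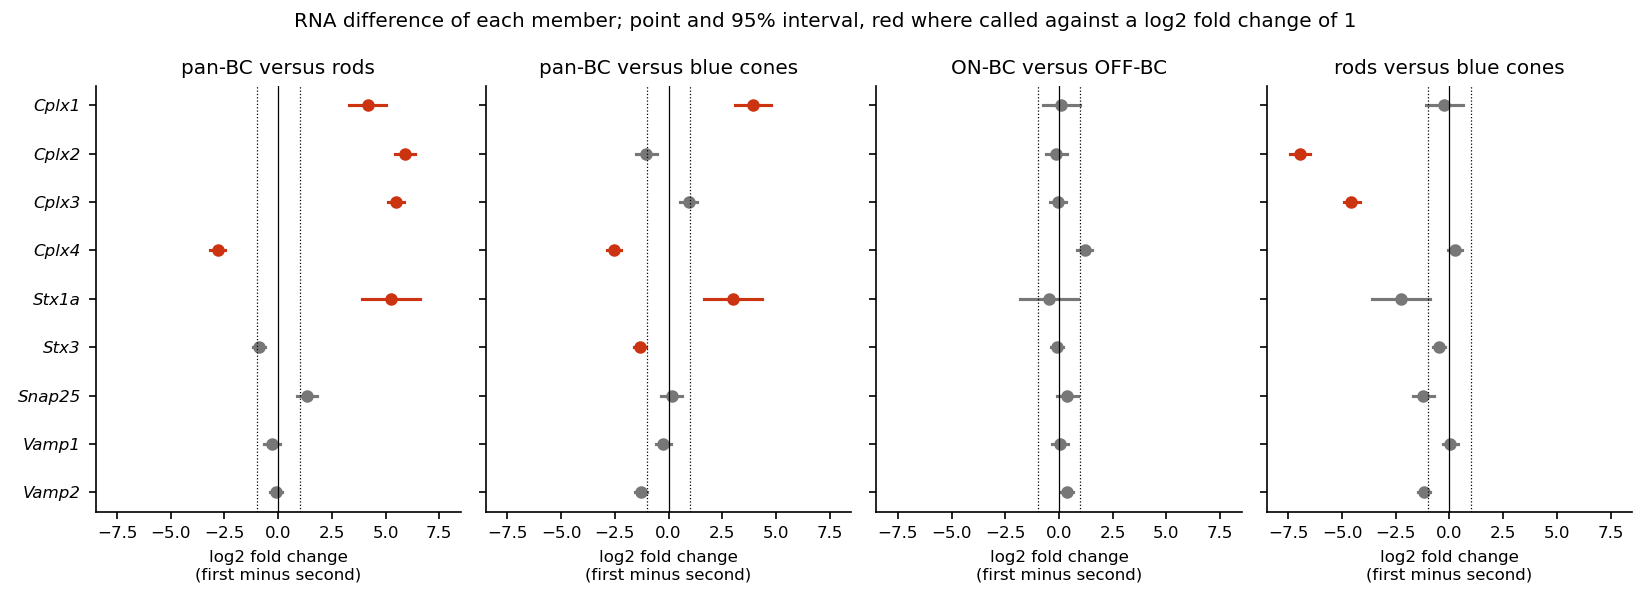
Log2 fold change of each member (point) with its 95% interval (line) in 4 comparisons, positive where the first population is higher. Red marks the members called against a log2 fold change of 1 (dotted lines), which are 5, 4, 0 and 2 from left to right.

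*Cplx1* (chr5:108518554-108550027, minus strand, GRCm38) encodes complexin 1, the main complexin of many conventional synapses. Its normalized counts were 365, 362 and 361 in pan-BC, 308, 347 and 426 in OFF-BC and 435, 370 and 355 in ON-BC. They were 15, 12.1 and 64.4 in blue cones and 21.4, 17.4 and 19.4 in rods. No bipolar library overlapped a photoreceptor library, and the third blue cone library stood above the other two. The mean in pan-BC was 18.7 times that in rods (log2 fold change 4.16 ± 0.40 SE, adjusted p = 1.78e-06, limma) and 11.9 times that in blue cones (3.92 ± 0.40, adjusted p = 6.69e-06, limma). Without the third blue cone library the difference from blue cones was 4.65 on the log2 scale. The ranges of the 3 bipolar populations overlapped, and so did those of rods and blue cones.

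The promoter of *Cplx1* was also more accessible in pan-BC than in rods. The 200 bp region at its start site (chr5:108549888-108550087, with its centre in the first exon) had normalized ATAC-seq counts of 96.8 and 73.6 for pan-BC, 44.5 and 82.7 in OFF-BC, 86.6 and 76.1 in ON-BC, 41.4 and 20.2 in blue cones, 14 and 10.8 in rods and 21.5 and 22.5 for green cones. All bipolar libraries were above all photoreceptor libraries. Pan-BC exceeded rods by 2.68 ± 0.39 on the log2 scale (adjusted p = 0.000732, limma), and 51.6% of the 108448 regions tested were called in this comparison, 40.3% as higher in pan-BC. The difference from blue cones, 1.51 ± 0.39, was not called (adjusted p = 0.225, limma), where 35.9% of regions were, 28.8% as higher in pan-BC. The median log2 difference over all regions was 1.16 between pan-BC and rods and 0.54 between pan-BC and blue cones.

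*Stx1a* (chr5:135023482-135051100, plus strand) encodes syntaxin 1A, the plasma membrane SNARE of conventional synapses. Its mean level per kilobase was the lowest of all members in each of the 5 populations, from 2.23 in rods to 71.7 in OFF-BC, and its range overlapped that of *Cplx2* in rods and that of *Cplx1* in blue cones. Normalized counts were 173, 142 and 176 in pan-BC, 194, 168 and 147 in OFF-BC and 99.1, 126 and 148 in ON-BC. They were 0, 7.17 and 8.64 in rods, from 0, 7 and 8 reads, and 41.4, 16.7 and 10.4 in blue cones. All bipolar libraries lay above all photoreceptor libraries. The difference of pan-BC was 5.26 ± 0.64 on the log2 scale from rods (adjusted p = 1.11e-05, limma) and 3.01 ± 0.64 from blue cones (adjusted p = 0.0101, limma). The latter call was lost without the third blue cone library (2.58, adjusted p = 0.0503, limma). Rods and blue cones did not overlap in these counts, but their difference of -2.25 ± 0.64 was not called (adjusted p = 0.177, limma). It was called without the third rod library (-2.84, adjusted p = 0.0422, limma).

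In accessibility the *Stx1a* start site separated rods from the other populations. The region chr5:135023391-135023590 had normalized counts of 88.0 and 71.8 in pan-BC, 59.3 and 107 in OFF-BC, 80.6 and 76.1 in ON-BC, 89.4 and 84.6 in blue cones, 10.9 and 11.5 in rods and 33.8 and 56.3 in green cones. Rods were lower than pan-BC (log2 fold change 2.72 ± 0.33, adjusted p = 0.000144, limma) and lower than blue cones (-2.85 ± 0.33, adjusted p = 0.000496, limma), in a comparison where 10.0% of all regions were called. Pan-BC and blue cones differed by -0.13 ± 0.33 there, which was not called (adjusted p = 1.0, limma). The last 250 bases before the start sites of *Stx1a* and *Cplx1* are shown because these are the only members whose promoter region was called higher in pan-BC than in rods. They were taken from the RefSeq promoter table (GRCm38.p6), which held 6 of the 9 members, and are written 5′ to 3′ on the strand of the gene, at chr5:108550028-108550277 for *Cplx1* and chr5:135023232-135023481 for *Stx1a*. Capitals were reserved for TAATCC and TAATTA on either strand, the core letters bound by homeodomain proteins of the OTX and CRX kind and of the VSX and LHX kind. Neither is present in these stretches.
Cplx1: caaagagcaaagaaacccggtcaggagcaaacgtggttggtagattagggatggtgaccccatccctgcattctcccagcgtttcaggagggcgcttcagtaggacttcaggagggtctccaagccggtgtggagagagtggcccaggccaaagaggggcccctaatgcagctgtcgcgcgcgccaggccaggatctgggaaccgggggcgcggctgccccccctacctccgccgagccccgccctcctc
Stx1a: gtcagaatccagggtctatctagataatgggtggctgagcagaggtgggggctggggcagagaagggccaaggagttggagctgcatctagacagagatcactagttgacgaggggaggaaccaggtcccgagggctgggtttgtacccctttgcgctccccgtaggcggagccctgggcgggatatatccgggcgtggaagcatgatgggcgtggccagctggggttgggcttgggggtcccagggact
Both stretches were rich in G and C (64.8% for *Cplx1* and 62.0% for *Stx1a*). Over the 300 bases of each entry, 7.16% of the 27025 promoters in the table held TAATCC and 5.31% held TAATTA, and 1 and 0 of the 6 members did.

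Cells with conventional synapses carry *Cplx1*, *Cplx2* and *Stx1a*, and amacrine cells are the most numerous of these in the inner retina. Reads were seen in every pan-BC library for 6 of 10 amacrine markers, in every ON-BC library for 6 and in every OFF-BC library for 7, and in rods and blue cones for 2 and 3. Their summed level was 564 to 613 in pan-BC, 927 to 1114 in OFF-BC and 329 to 485 in ON-BC. It was 1371 to 1604 in blue cones and 2115 to 2448 in rods, where the glycine transporter gene *Slc6a9* had means of 1476 and 2271. Some other markers were higher in bipolar cells. *Gad1*, the GABA-synthesizing enzyme, had means of 60.6 in pan-BC, 27.7 in OFF-BC and 37.7 in ON-BC, against 1.98 in blue cones and 1.40 in rods. The transcription factor genes *Tfap2b* and *Pax6* were highest in OFF-BC, with means of 91.6 and 135 in pan-BC, 212 and 184 in OFF-BC, 54.5 and 114 in ON-BC, 6.22 and 16.6 in blue cones and 4.25 and 35.8 in rods. *Slc32a1*, the vesicular transporter of GABA and glycine, had 2.50, 8.13 and 1.65 in pan-BC, OFF-BC and ON-BC. *Slc32a1*, *Slc6a5*, *Chat* and *Th* were at 0 in all rod libraries. The means of *Slc6a5*, *Chat* and *Th* were at most 1.85 in the bipolar populations too, so these genes hardly separated them from rods. The part of such cells in the levels of *Cplx1*, *Cplx2* and *Stx1a* was not tested.

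*Cplx2* (chr13:54302556-54383917, plus strand) encodes complexin 2, which is closely related to complexin 1. Its pattern was not that of *Cplx1*. Normalized counts were 1002, 911 and 1000 in pan-BC, 744, 825 and 926 in OFF-BC, 856, 688 and 752 in ON-BC, 1952, 2402 and 1674 in blue cones and 16.5, 9.22 and 22.7 in rods. Blue cones were the highest and rods the lowest, with no overlap with any bipolar library. The mean in blue cones was 124.5 times that in rods (log2 fold change -6.94 ± 0.22, adjusted p = 8.21e-13, limma). Pan-BC exceeded rods 60.2-fold in the mean (5.91 ± 0.22, adjusted p = 3.44e-12, limma). The difference between pan-BC and blue cones, -1.03 ± 0.22, did not pass the test against a log2 fold change of 1 (adjusted p = 0.854, limma) and passed against 0 (adjusted p = 0.000502, limma).

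Most accessible regions along *Cplx2* were more open in blue cones than in rods. Of its 15 regions, all tested, 12 were called between rods and blue cones and all of these were higher in blue cones, where 8.56% of all regions were called in that direction. Between pan-BC and rods 9 were called, all higher in pan-BC, against 40.3% of all regions. In the intronic region chr13:54322831-54323030, 20374 bp after the start site, normalized counts were 63.2 and 74.1 in pan-BC, 57.9 and 65.2 in OFF-BC, 88.1 and 79.1 in ON-BC, 234 and 200 in blue cones, 18.7 and 20.3 in rods and 125 and 131 in green cones. Both kinds of cones were above all bipolar libraries and rods below all of them. The difference of rods from blue cones was -3.41 ± 0.24 (adjusted p = 1.13e-06, limma), and pan-BC stood between them, 1.76 ± 0.24 above rods (adjusted p = 0.00727, limma) and -1.65 ± 0.24 from blue cones (adjusted p = 0.0255, limma). The last of these calls was lost in 5 of 12 alternatives. A further intronic region, chr13:54325924-54326123, had 129.5 and 169 in blue cones, 0 and 3.4 in rods, 50.4 and 34.2 in pan-BC, 86.2 and 97.4 in OFF-BC and 55.2 and 41.0 in ON-BC. Its difference of rods from blue cones was -6.15 ± 0.49 (adjusted p = 5.58e-07, limma). In the fit of all libraries 14 of the members' 53 regions were called between rods and blue cones, and in a limma fit of these 4 libraries alone, added after seeing the data, 0 were, as were 0 of all 108448 regions. At the start site itself (chr13:54302563-54302762) ON-BC had 0 and 2.9, OFF-BC 16.2 and 38.0, and the region was called higher in OFF-BC (-3.71 ± 0.64, adjusted p = 0.00751, limma). This call was lost in 4 of 11 alternatives. Blue cones had 45.3 and 42.6 in this region, green cones 33.0 and 39.4, pan-BC 19.2 and 13.1 and rods 5.5 and 5.4. Of all regions 7.39% were called between ON-BC and OFF-BC, 2.80% as higher in OFF-BC.

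The sequences of the 2 intronic regions, read from the GRCm38.p6 genome on the plus strand, are shown because the first is the only region of *Cplx2* called in all 3 comparisons among pan-BC, rods and blue cones, and the second had the largest difference between rods and blue cones. They were chosen after their values were seen. Capitals mark TAATCC on either strand, which on the reverse strand reads GGATTA.
Cplx2 chr13:54322831-54323030: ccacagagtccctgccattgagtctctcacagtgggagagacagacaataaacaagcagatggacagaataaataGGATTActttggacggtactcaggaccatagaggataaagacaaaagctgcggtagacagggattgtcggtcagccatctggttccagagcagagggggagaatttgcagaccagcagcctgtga
Cplx2 chr13:54325924-54326123: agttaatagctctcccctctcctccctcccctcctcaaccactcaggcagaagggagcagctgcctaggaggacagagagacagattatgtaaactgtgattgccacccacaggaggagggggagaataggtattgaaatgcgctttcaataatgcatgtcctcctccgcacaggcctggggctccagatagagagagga
The first region holds 1 match and the second none. Of 108180 regions of the same length on chromosomes 1 to 19, 21.9% held TAATCC and 5.22% held TAATTA, and 12 and 3 of the members' 53 regions did (22.6% and 5.66%).

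*Cplx3* (chr9:57599992-57606281, minus strand) encodes complexin 3, a ribbon synapse complexin. It was the complexin with the highest level in bipolar cells. Normalized counts were 49677, 49741 and 45513 in pan-BC, 58549, 39432 and 47123 in OFF-BC and 42157, 44654 and 50810 in ON-BC. They were 21405, 26456 and 28701 in blue cones and 854, 1243 and 1171 in rods. Rods were below every other library, and blue cones below every bipolar library. Pan-BC exceeded rods 44.4-fold in the mean (log2 fold change 5.49 ± 0.18, adjusted p = 6.75e-13, limma), and rods differed from blue cones by -4.56 ± 0.18 (adjusted p = 3.89e-11, limma). The difference between pan-BC and blue cones, 0.93 ± 0.18 with a 95% interval of 0.55 to 1.31, was not called (adjusted p = 1.0 against a log2 fold change of 1, and 0.000164 against 0, limma).

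Rods, low in *Cplx3* RNA, were not low in accessibility at this gene. The upstream region chr9:57606236-57606435 had normalized counts of 92.8 and 87.8 in pan-BC, 71.4 and 100 in OFF-BC, 77.6 and 55.6 in ON-BC, 172 and 199.5 in blue cones, 172 and 175.5 in rods and 118 and 94.4 in green cones. Rod and blue cone libraries were above all bipolar libraries, while the second green cone library lay within the bipolar range. The differences of pan-BC from rods of -0.94 ± 0.24 and from blue cones of -1.03 ± 0.24 were not called (adjusted p = 0.785 and 0.735, limma). An intronic region 602 bp after the start site was called higher in rods and in blue cones. It had 63.2 and 83.2 in pan-BC, 82.2 and 84.7 in OFF-BC, 76.2 and 77.6 in ON-BC, 339 and 251.5 in blue cones, 244.5 and 257.5 in rods and 188 and 134 in green cones. Pan-BC differed by -1.78 ± 0.23 from rods (adjusted p = 0.00421, limma) and by -1.99 ± 0.23 from blue cones (adjusted p = 0.0012, limma). Rods, with little *Cplx3* RNA, and blue cones, with much, overlapped in this region. Its sequence, on the minus strand at chr9:57605579-57605778, is shown because it is the only region of *Cplx3* that was called, and it holds TAATCC 2 times on this strand, in capitals.
Cplx3: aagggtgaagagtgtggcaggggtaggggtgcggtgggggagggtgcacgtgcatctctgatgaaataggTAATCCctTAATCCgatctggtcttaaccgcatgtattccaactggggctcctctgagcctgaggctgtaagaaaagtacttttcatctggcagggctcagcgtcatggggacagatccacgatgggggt

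*Cplx4* (chr18:65955722-65970178, minus strand) encodes complexin 4, the other ribbon synapse complexin. It was the only member called higher in both photoreceptors than in pan-BC under the test of RNA. Normalized counts were 53419, 62881 and 56340 in blue cones and 62095, 78567 and 68593 in rods. They were 10983, 10151 and 8504 in pan-BC, 3968, 3675 and 4841 in OFF-BC and 9533, 8184 and 10670 in ON-BC. Pan-BC and ON-BC overlapped, and OFF-BC were below all others. Pan-BC differed from rods by -2.82 ± 0.16 (adjusted p = 1.15e-08, limma) and from blue cones by -2.55 ± 0.16 (adjusted p = 1.64e-07, limma). ON-BC were 2.27 times OFF-BC in the mean. This log2 difference of 1.19 ± 0.16, with a 95% interval of 0.86 to 1.52, did not pass against a log2 fold change of 1 (adjusted p = 1.0, limma) and passed against 0 (adjusted p = 1.97e-05, limma).

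Since *Cplx4* is abundant in photoreceptors, its bipolar levels were set beside those of rod markers. *Cplx4* stood at 14.2% of its rod level in pan-BC, 5.97% in OFF-BC and 13.6% in ON-BC. The 7 rod markers ranged from 0.450% (*Pde6a*) to 11.4% (*Rom1*) in pan-BC, from 0.415% to 11.2% in ON-BC and from 0.0485% to 7.21% in OFF-BC. In pan-BC and ON-BC the mean share of *Cplx4* was above that of every rod marker, and in OFF-BC *Gngt1* and *Rom1* were above it. In ON-BC the range of *Cplx4*, 11.7% to 15.3%, overlapped that of *Rom1*, 10.3% to 12.7%. The excess of ON-BC over OFF-BC came to 7.60% of the rod level for *Cplx4*, and to between 0.358% and 4.37% for the 7 markers. Relative to blue cones, *Cplx4* stood at 17.2%, 16.4% and 7.23% in pan-BC, ON-BC and OFF-BC, and the 8 cone markers at 0.259% to 19.1%, 0.0354% to 5.20% and 0.498% to 52.8%. *Cplx2* stood at 48.3%, 38.1% and 41.4% of its blue cone level. The part of photoreceptor RNA in these bipolar levels was not tested.

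**Figure D3:**
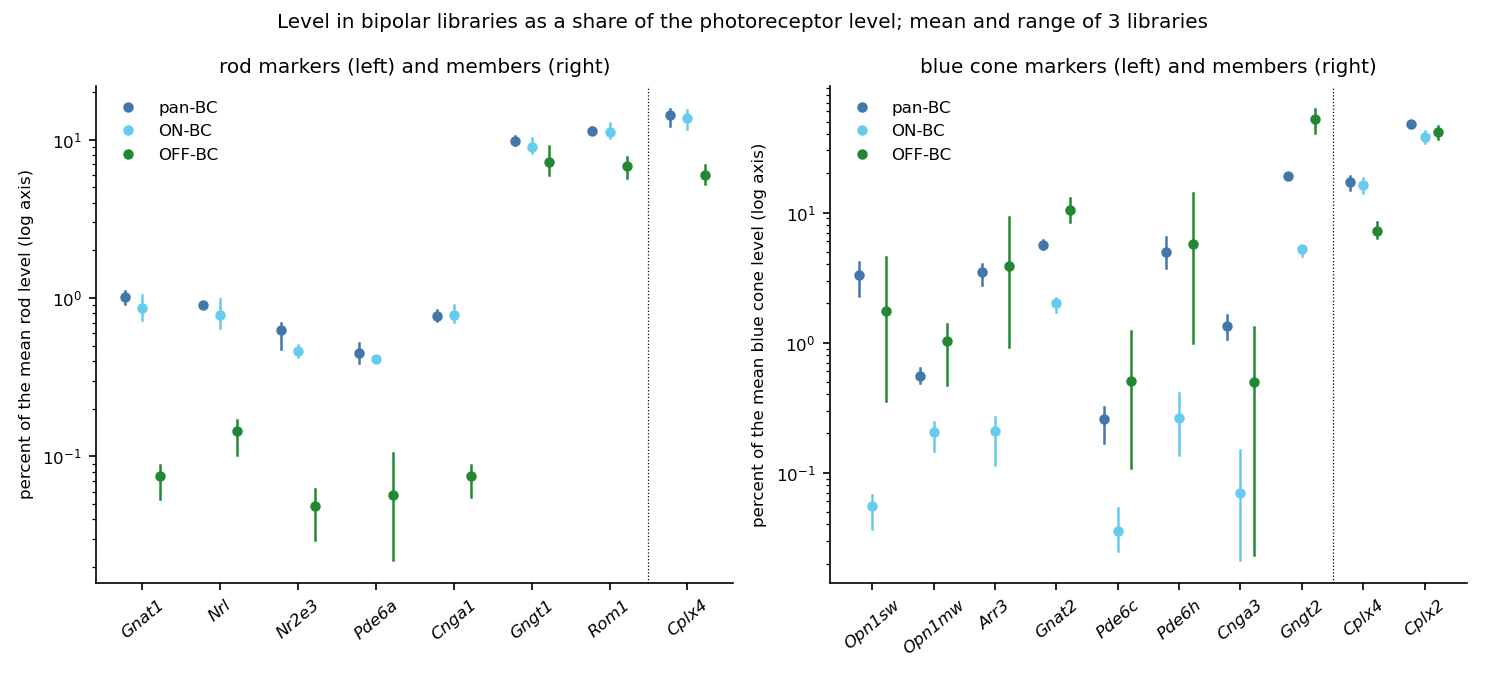
Level in the 3 bipolar populations as a percent of the mean level in rods (left) or blue cones (right) on a log axis, for 7 rod or 8 cone markers and, right of the dotted line, for members; points are means and lines the range of 3 libraries. *Cplx4* is at 14.2% (pan-BC), 13.6% (ON-BC) and 5.97% (OFF-BC) of its rod level, and *Rom1*, the highest rod marker in pan-BC, at 11.4%, 11.2% and 6.84%.

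Accessibility of *Cplx4* was higher in rods and blue cones along the gene, with 5 of 6 regions called higher in rods than in pan-BC and 3 higher in blue cones, where 11.2% and 7.13% of all regions were called in these directions. The promoter region (chr18:65970168-65970367) had normalized counts of 174 and 207 in pan-BC, 170 and 119 in OFF-BC, 210.5 and 274 in ON-BC, 324 and 328 in blue cones, 543 and 577 in rods and 260.5 and 235 in green cones. Rods were above all other libraries, and green cones lay within the ON-BC range. Pan-BC differed from rods by -1.56 ± 0.19 (adjusted p = 0.0109, limma). This call was lost without the first pan-BC library (-1.43, adjusted p = 0.0766, limma) or the second rod library (-1.51, adjusted p = 0.0624, limma). ON-BC lay above OFF-BC in both libraries, with a difference of 0.75 ± 0.19 that was not called against a log2 fold change of 1 (adjusted p = 1.0, limma) and was against 0 (adjusted p = 0.00777, limma). The region deepest in the gene (chr18:65959111-65959310) went the other way, with 44.5 and 36.0 in OFF-BC and 0 and 2.9 in ON-BC (-4.37 ± 0.50, adjusted p = 0.00032, limma). This call was lost in 1 of 11 alternatives.

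The balance of the 4 complexins per kilobase of exon differed between populations. *Cplx4* made up 99.0% ± 0.0991 (SD, n = 3) of the complexin level in rods and 78.0% ± 2.08 in blue cones. *Cplx3* made up 74.0% ± 1.48 in pan-BC, 86.1% ± 2.57 in OFF-BC and 73.8% ± 2.05 in ON-BC, and *Cplx4* 24.5% ± 1.57, 12.3% ± 2.20 and 24.8% ± 1.93 in the same order. *Cplx1* and *Cplx2* each stayed below 1% in the mean of every population.

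*Stx3* (chr19:11775118-11819403, minus strand) encodes syntaxin 3, the syntaxin of ribbon synapses. It exceeded *Stx1a* per kilobase in all populations, with means of 924 against 69.2 in pan-BC, 1713 against 2.23 in rods and 2384 against 9.63 in blue cones. Normalized counts were 4492, 4804 and 4827 in pan-BC, 4961, 5406 and 5795 in OFF-BC, 5291, 4833 and 5184 in ON-BC, 9708, 12593 and 14151 in blue cones and 7526, 9433 and 9240 in rods. All photoreceptor libraries were above all bipolar libraries. The difference of pan-BC from blue cones was -1.35 ± 0.13 (adjusted p = 0.0257, limma), and the call was lost when libraries were scaled by their totals (-1.07, adjusted p = 0.573), without the first pan-BC library (-1.32, adjusted p = 0.0813), without the second blue cone library (-1.32, adjusted p = 0.0795) or without the third (-1.23, adjusted p = 0.13). The difference from rods, -0.88 ± 0.13, was not called against a log2 fold change of 1 (adjusted p = 1.0, limma) and was against 0 (adjusted p = 1.1e-05, limma). Accessibility differed region by region. In the intron, chr19:11812037-11812236 was more accessible in pan-BC, exceeding rods (2.27 ± 0.32, adjusted p = 0.00126, limma) and blue cones (2.22 ± 0.32, adjusted p = 0.0028, limma), with 109 and 155 in pan-BC, 33.7 and 21.7 in blue cones and 28.0 and 24.4 in rods. In chr19:11817634-11817833, near the start site, rods stood alone with 162 and 160, against 13.6 and 15.4 in pan-BC (-3.39 ± 0.33, adjusted p = 4.91e-06, limma) and 42.7 and 44.8 in blue cones. The upstream region chr19:11819897-11820096 was higher in rods (202 and 201) than in blue cones (55.7 and 62.9), by 1.75 ± 0.23 (adjusted p = 0.0252, limma), a call lost in 8 of 12 alternatives. Of all regions 1.46% were called in this direction.

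*Snap25* (chr2:136713450-136782428, plus strand) encodes the plasma membrane SNARE that pairs with syntaxin. It had the highest level per kilobase of all members in pan-BC (35279), ON-BC (38649) and OFF-BC (29587). In blue cones its mean of 32253 was next to 32772 for *Cplx4*, with overlapping ranges, and in rods its 14183 was below 39722 for *Cplx4*. Normalized counts were 83934, 84455 and 78740 in pan-BC, 78675, 62889 and 65694 in OFF-BC, 91426, 80780 and 98528 in ON-BC, 65143, 77078 and 83713 in blue cones and 24254, 41112 and 33986 in rods. Rods were below all other libraries. The difference of pan-BC from rods was 1.35 ± 0.23 with a 95% interval of 0.87 to 1.82, and it was not called (adjusted p = 0.15, limma). It was called by limma when libraries were scaled by their totals (1.70, adjusted p = 0.00029) and without the second rod library (1.52, adjusted p = 0.0439). Every ON-BC library exceeded every OFF-BC library, with a difference of 0.39 ± 0.23 that passed neither against a log2 fold change of 1 (adjusted p = 1.0) nor against 0 (adjusted p = 0.227, limma).

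Although *Snap25* RNA was abundant in all populations, some accessible regions in its introns differed between them. Its promoter region (chr2:136713307-136713506) had 188 and 260 in pan-BC, 244 and 230 in OFF-BC, 184 and 256 in ON-BC, 173.5 and 184 in blue cones and 248 and 247 in rods, with no call. The region chr2:136758975-136759174, 45624 bp after the start site, had 69.6 and 84.4 in pan-BC and 98.5 and 116 in ON-BC. It had no read in OFF-BC or blue cones, and 1.6 and 0 in rods. Against 3 reads per OFF-BC library, ON-BC were at least 30.8-fold higher (adjusted p = 6.87e-05, limma), and pan-BC at least 25.4-fold higher than blue cones (adjusted p = 1.2e-05, limma). The region chr2:136771000-136771199 had 96.0 and 98.6 in pan-BC, 0 and 1.9 in OFF-BC, 106 and 123 in ON-BC, 0 in both rod libraries and 1.3 and 1.4 in blue cones. ON-BC differed from OFF-BC (adjusted p = 0.000621, limma), and pan-BC were at least 44.6-fold higher than rods (adjusted p = 1e-05, limma). Both calls between ON-BC and OFF-BC held in all 11 alternatives. Another intronic region, chr2:136778246-136778445, had 72.0 and 69.0 in pan-BC, 37.7 and 19.5 in OFF-BC, 56.7 and 96.6 in ON-BC, 0 and 2.2 in blue cones and 3.1 and 6.8 in rods, and it was called between pan-BC and both photoreceptors (3.66 ± 0.63 and 5.33 ± 0.63, adjusted p = 0.000829 and 2.75e-05, limma). Of the 16 regions of *Snap25*, 6 were called higher in pan-BC and 2 higher in rods, against 40.3% and 11.2% of all regions, and 4 were called higher in pan-BC than in blue cones, against 28.8%. These counts are near the shares over all regions.

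The first 2 of these regions are shown in sequence because they are the only regions of any member called higher in ON-BC than in OFF-BC (4.58% of all regions were). They were chosen after their values were seen, and are given on the plus strand from GRCm38.p6 with TAATCC on either strand in capitals.
Snap25 chr2:136758975-136759174: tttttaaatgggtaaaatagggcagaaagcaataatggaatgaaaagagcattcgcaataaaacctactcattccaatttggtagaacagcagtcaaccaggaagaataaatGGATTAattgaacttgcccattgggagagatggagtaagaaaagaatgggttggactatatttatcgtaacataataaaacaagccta
Snap25 chr2:136771000-136771199: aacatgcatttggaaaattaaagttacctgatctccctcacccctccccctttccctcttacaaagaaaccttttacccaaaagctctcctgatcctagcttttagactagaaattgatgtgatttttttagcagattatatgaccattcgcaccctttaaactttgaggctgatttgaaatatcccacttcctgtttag
The first holds 1 match to TAATCC on the reverse strand and the second holds none, and both are poor in G and C (34.5% and 38.5%).

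**Figure D4:**
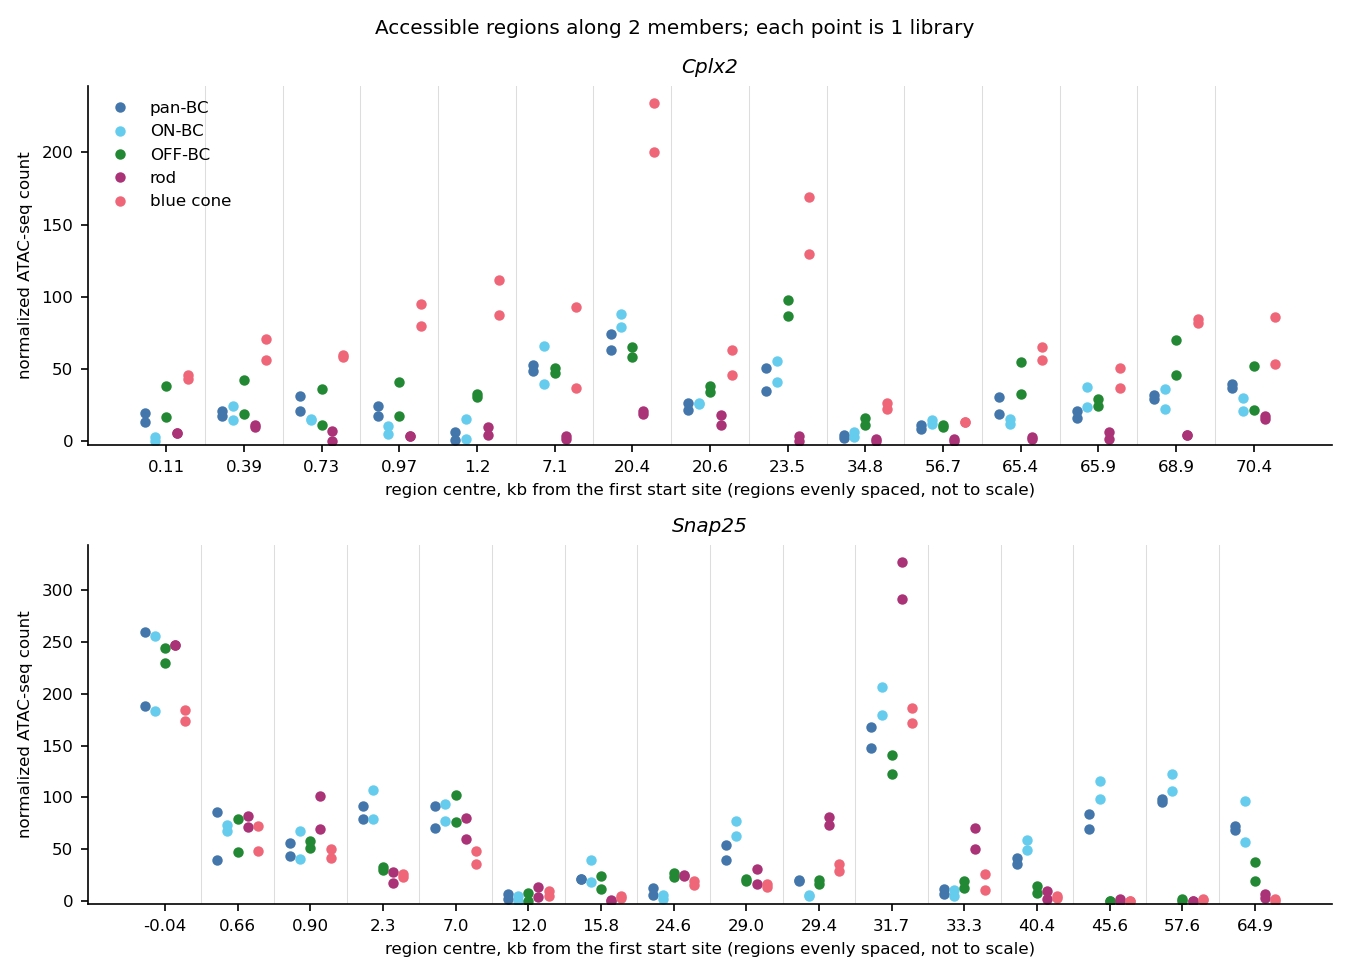
Normalized ATAC-seq counts of the regions of *Cplx2* (above) and *Snap25* (below), 1 point a library, ordered by the distance of the region centre from the first start site in kilobases and drawn evenly spaced. Along *Cplx2* the blue cone libraries are high (234 and 200 at 20374 bp) and rods low, and at 45624 and 57649 bp of *Snap25* only pan-BC and ON-BC are open (69.6 to 123).

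*Vamp2* (chr11:69088528-69092381, plus strand) encodes synaptobrevin 2, the main vesicle SNARE of the brain, and *Vamp1* (chr6:125215581-125222306, plus strand) encodes synaptobrevin 1. Normalized counts of *Vamp2* were 4938, 5120 and 5630 in pan-BC, 4371, 5056 and 6323 in OFF-BC, 6544, 6510 and 6882 in ON-BC, 11341, 13172 and 13944 in blue cones and 5018, 5829 and 5898 in rods. Blue cones were above all other libraries. Pan-BC differed from blue cones by -1.29 ± 0.13 (adjusted p = 0.0555, limma), which 5 of 15 alternatives called. The difference of rods from blue cones was -1.20 ± 0.13 (adjusted p = 0.347 against a log2 fold change of 1, 7.27e-07 against 0, limma). Pan-BC and rods differed by -0.09, with a 95% interval of -0.37 to 0.18.

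Counts of *Vamp1* were 445, 366 and 460 in pan-BC, 541, 396 and 521 in OFF-BC, 440, 522 and 529 in ON-BC, 641, 486 and 395 in blue cones and 475, 493 and 570 in rods. Neighbours in the order of its population means all overlapped, though every pan-BC library was below every rod library, and its log2 differences lay between -0.28 and 0.04 with 95% intervals from -0.64 to 0.40. None was past the test, also against a log2 fold change of 0 (adjusted p = 0.147 to 0.891, limma). Per kilobase *Vamp2* exceeded *Vamp1* in each population, with means of 2416 and 134 in pan-BC, 5924 and 161 in blue cones and 2579 and 162.5 in rods. The promoter region of *Vamp1* (chr6:125215394-125215593) had 236 and 176 in pan-BC and 453 and 394 in rods, a difference of -1.05 ± 0.21 that was not called (adjusted p = 0.575, limma), and that of *Vamp2* had 94.4 and 63.3 in pan-BC and 160 and 143 in rods (-0.96 ± 0.27, adjusted p = 0.739, limma). A region in an exon of *Vamp2* (chr11:69088973-69089172) was called higher in both photoreceptors, with 8.8 and 14.8 in pan-BC, 66 and 60.7 in blue cones and 74.8 and 72.5 in rods, calls that 3 of 11 and 4 of 12 alternatives lost.

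**Figure D5:**
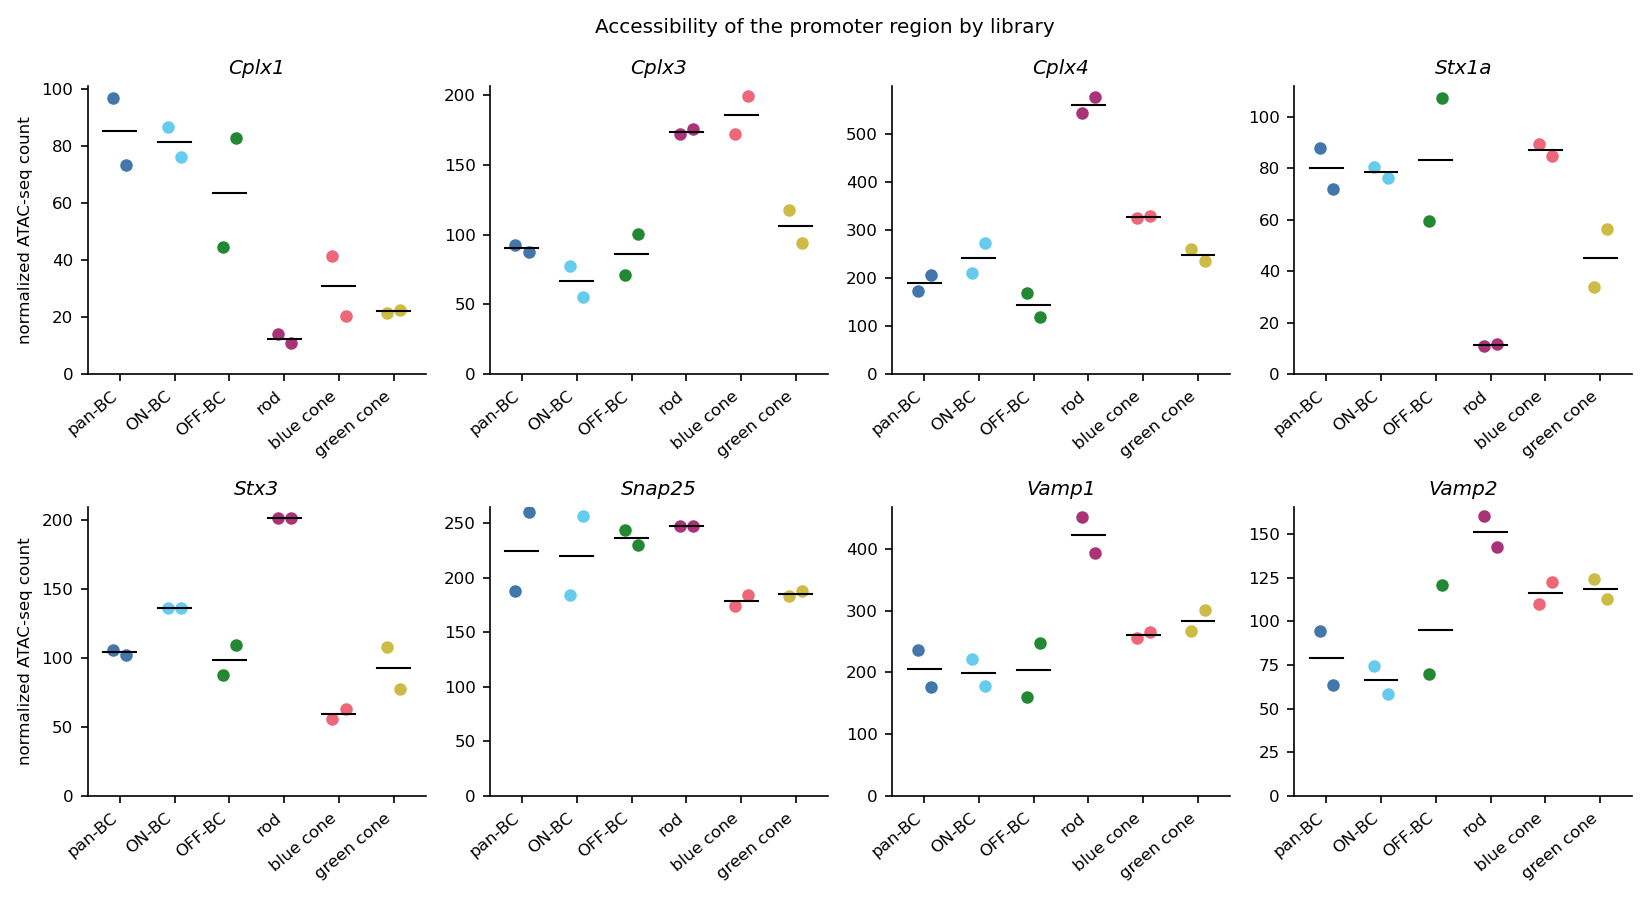
Normalized ATAC-seq counts of the promoter region of 8 members in 2 libraries (points) of 6 populations with their mean (line). Each panel has its own axis from 0; *Cplx1* and *Stx1a* are lowest in rods (10.8 to 14), and *Cplx4* is highest in rods (543 and 577).

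Promoter regions were those centred within 1000 bp upstream or 100 bp downstream of a start site, and 8 members had 1 each. *Cplx2*, whose nearest region was centred 106 bp after its start site, had none by this rule. Between pan-BC and rods 2 of these 8 were called higher in pan-BC (*Cplx1*, *Stx1a*) and 1 higher in rods (*Cplx4*). This is not above the 40.3% of all regions in the first direction and near the 11.2% in the second, shares that are not limited to promoter regions. None was called between pan-BC and blue cones or between ON-BC and OFF-BC by limma, with 0 at an unadjusted p under 0.05 in both. DESeq2 called 0 in both, edgeR 1 and 0, and limma against a log2 fold change of 0 called 4 and 1. Of all 108448 regions, limma against 0 called 66171 and 26416. Between rods and blue cones *Stx1a* was higher in blue cones and *Stx3* higher in rods. In the peak lists, which were called in each library, a peak lay over the promoter of all 9 members in both libraries of pan-BC, OFF-BC and blue cones and of 8 members in ON-BC and green cones. In rods 6 members had one in both libraries, and *Cplx1*, *Cplx2* and *Stx1a* had none in either. These 3 genes are also the members with the lowest RNA in rods.

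Ordered by level per kilobase, *Snap25*, *Cplx3*, *Cplx4*, *Vamp2* and *Stx3* came first in pan-BC and ON-BC, with no overlap between neighbours. In OFF-BC *Vamp2* (2426) and *Cplx4* (2370) overlapped. In rods the order was *Cplx4*, *Snap25*, *Vamp2*, *Stx3* and *Cplx3*, with no overlap. *Cplx1*, *Cplx2*, *Vamp1* and *Stx1a* were the 4 lowest in every population. Over the longest transcript in place of all exons, neighbours changed places in 3 populations, *Vamp1* and *Cplx2* in OFF-BC, *Stx3* and *Vamp2* in rods and *Snap25* and *Cplx4* in blue cones.

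A list of 27 other genes of the same machinery, covering further SNAREs, priming proteins, the disassembly factors and synucleins, had 25 genes tested. *Vamp7* was listed at 0 in all libraries and *Stxbp6* was too low to test. Between pan-BC and rods 6 were higher in pan-BC and 2 higher in rods, against 27.8% and 15.8% of all genes, which these counts do not exceed. The largest was *Unc13c*, a Munc13 protein that primes vesicles, with 2270 to 2551 in pan-BC and 2.91 to 31.3 in rods (7.33 ± 0.54, adjusted p = 1.12e-08, limma). *Sncb*, which encodes beta-synuclein, had 22404 to 24332 in pan-BC and 1600 to 2100 in rods (3.62 ± 0.15, adjusted p = 8.24e-11, limma). *Snph*, which encodes syntaphilin, had 1011 to 1100 in pan-BC and 202 to 242 in rods (2.25 ± 0.12, adjusted p = 4.66e-08, limma). *Sncg* was also higher in pan-BC (3.84), from a mean of 61.3 normalized counts. *Sncg* is also a ganglion cell marker. The summed level of 8 such markers, *Sncg* among them, was 382 to 409 in pan-BC, 62.6 to 126 in OFF-BC, 280 to 336 in ON-BC, 155 to 208 in blue cones and 40.8 to 69.2 in rods. *Nefl* had the highest mean of them in pan-BC (213), and *Pou4f1* in blue cones (129, against 5.32 in pan-BC). *Thy1* was at 0 in both photoreceptors, with 62.1, 27.9 and 95.5 in pan-BC, OFF-BC and ON-BC. *Pou4f2* was also at 0 in both photoreceptors, with at most 0.69 in a bipolar population. The part of such cells was not tested. *Snap23*, a relative of SNAP-25 found in many tissues, was higher in rods (732 to 839 against 130 to 171.5), and so was *Stxbp3a* (-1.42).

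Between pan-BC and blue cones 4 of the 25 were higher in pan-BC and 3 higher in blue cones, which does not exceed the 22.7% and 13.7% of all genes. *Unc13c* (5.54 ± 0.54), *Sncg* (3.72), *Stxbp5l* (2.01) and *Snph* (1.35) made up the first group. *Stxbp5l*, which encodes tomosyn-2, had 996 to 1188 in pan-BC and 229 to 336 in blue cones (adjusted p = 3.03e-05, limma). *Stxbp3a*, *Snapin* and *Napg* were higher in blue cones (-1.41, -1.26 and -1.25), and the call of *Snapin* was lost in 10 of 15 alternatives. Of the list, 0 were called for ON-BC against OFF-BC by limma, edgeR or DESeq2, with 0 at an unadjusted p under 0.05 in limma's test. Against a log2 fold change of 0 limma called 7 there, and 3783 of all 14024 genes. Between rods and blue cones *Sncb* (-2.51 ± 0.15, adjusted p = 3.47e-07, limma) and *Vamp4* (-2.14 ± 0.09, adjusted p = 1.21e-08, limma) were higher in blue cones. The median log2 difference of the list was 0.63, 0.67, 0.20 and -0.13 in the 4 comparisons.

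For each member the 2 genes with the most similar pattern were found by the root mean square difference between the 5 population means of log2 normalized count, each profile centred on its own mean. *Cplx1* was nearest to *Dact2* (0.11) and *Lrfn4* (0.13), *Cplx2* to *Nfkb1* (0.13) and *4930447C04Rik* (0.16), *Cplx3* to *Otud7a* (0.09) and *4933431E20Rik* (0.12) and *Cplx4* to *Iqcd* (0.15) and *Cdkn1c* (0.19). *Stx1a* was nearest to *Glipr2* (0.07) and *Cd63* (0.11), *Stx3* to *Stoml1* and *Chordc1* (0.04 each), *Snap25* to *Rrp1* (0.07) and *Cd81* (0.08), *Vamp1* to *Fbxw5* (0.03) and *Zkscan4* (0.04) and *Vamp2* to *Slc39a3* (0.07) and *Tsen34* (0.08). No member was among the 2 nearest genes of another. *Iqcd*, with means of 223 in blue cones, 273 in rods and 14.7 to 37.1 in bipolar cells, showed the lower OFF-BC level that *Cplx4* had, at far lower counts. Profiles of 5 points are short, and such near neighbours are a description only.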

How the data were processed

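RNA-seq and ATAC-seq were done on cells sorted by fluorescence. For the bipolar RNA-seq libraries the paper names the SMARTer Ultra Low kit and 50 bp single-end reads. The rod and blue cone libraries were made in earlier work. Per their methods, the authors aligned RNA reads with STAR 2.7.0d to mm10 and counted them per RefSeq gene with HTSeq. They aligned ATAC-seq reads with Bowtie2, removed duplicates with Picard 2.19.0, dropped fragments over 150 bp, called peaks in each library with MACS2 2.1.1 and counted reads in 200 bp regions. The deposited signal values of both tables are counts that the authors divided by 1 size factor per library, and the deposited peak lists give each peak's fold enrichment over background, of which only the positions were used. Whether the gene counting used strand is not given in the sources used here. Dividing by the step between values gave whole reads for 100.0% of values within 0.01 read. RNA-seq depth was 12329548 to 26266746 reads (median 15569580) and ATAC-seq depth 4176776 to 12345845 (median 6648830), so values of a few reads, such as those of *Stx1a* in rods, are imprecise.

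Groups followed the sample labels. The authors tested with DESeq2 against a fold change threshold. Here log2(normalized count + 1) was fitted in limma 3.58.1 (R 4.3.3) over all 15 RNA or all 12 ATAC-seq libraries, with 1 mean per population, a trended prior and a test against a log2 fold change of 1. The filter of edgeR 4.0.16 left 14024 of 24062 genes and 108448 of 110715 regions, Benjamini-Hochberg adjustment ran over all of these, and an adjusted p below 0.05 was called. The test was a fit on normalized values because the tables hold no raw counts. edgeR and DESeq2 1.42.0 on the recovered reads, another scaling, pseudocount, filter, promoter window or length, fewer libraries and a replicate block were the alternatives. Fits were tested on simulated data. A region belonged to a gene when its centre lay within the gene, or from 1000 bp before to 100 bp after one of its start sites, in GRCm38. Levels per kilobase used the union of RefSeq exons.

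The members, the partner list and the marker lists were chosen with earlier results of these data known, and 4 genes of these lists are not reported here. Named genes are all members, at most 4 called partners per direction by size of log2 fold change, the 2 nearest genes of each member, and markers. OFF-BC and ON-BC replicates with the same number were from mice of equal age (postnatal day 43, 48 and 42 for RNA, 42 and 46 for ATAC-seq), but the labels do not say that they shared animals or a sort. Same-numbered RNA replicates had correlations of -0.076, 0.222 and -0.065 between their deviations, and the numbers were not taken as pairs. Python 3.11.15 made the tables and figures.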

Additional observations from a re-analysis of the deposited data

Results flagged for a closer look

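In the 2 double-sorted green cone libraries, for which only peak positions were used and which enter no comparison above, a peak lay over the promoter of 5 of the 9 members in both libraries and of 7 in at least 1. *Cplx1*, *Cplx2*, *Stx3* and *Vamp2* lacked one in at least 1 of these libraries. It was listed here as a signal in data outside the main measurement. The single-sorted green cone libraries had such a peak for 8 members in both.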

How the results depend on the processing

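Of the members' recomputed differences 552 kept their direction and side of the threshold, 18 newly passed, 5 no longer passed and 10 changed sign, none of which was called. Tested by limma against a log2 fold change of 0, 7 members were called between pan-BC and blue cones. There were 1 between ON-BC and OFF-BC and 6 between rods and blue cones. Of all 14024 genes, 10704, 3783 and 8068 were called in these comparisons. Of the promoter regions, 7 were called against 0 between pan-BC and rods and 4 between pan-BC and blue cones. There were 1 between ON-BC and OFF-BC and 5 between rods and blue cones. Of all 108448 regions, 79210, 66171, 26416 and 37557 were called in these 4 comparisons. Leaving out 1 library gave 2 to 5 members between pan-BC and blue cones (2 without the third blue cone library) and 1 promoter region between rods and blue cones in each case. Promoter regions called numbered 1 between pan-BC and blue cones by edgeR, 1 between ON-BC and OFF-BC with a window of 500 bp to either side, and between rods and blue cones 1 by DESeq2, 1 with library totals, 1 with blue and green cones as 1 level and 0 with only these libraries, an alternative chosen after seeing the data.

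Scaling by library totals moved the median log2 difference of all genes from 0.211 to 0.549 between pan-BC and rods and from 0.158 to 0.436 between pan-BC and blue cones. It turned *Vamp1* (0.07) and *Vamp2* (0.26) between pan-BC and rods, *Vamp1* (0.04) between pan-BC and blue cones and *Vamp1* (-0.03) between rods and blue cones. With 1 library left out, differences that changed sign ranged between ON-BC and OFF-BC from -0.20 to 0.09 for *Cplx3* and from -0.10 to 0.13 for *Vamp1*, and between rods and blue cones from -0.67 to 0.49 for *Cplx1* (0.49 without the third blue cone library) and from -0.13 to 0.22 for *Vamp1*. For promoter regions they ranged from -0.39 to 0.07 for *Snap25* between pan-BC and rods, from -0.27 to 0.02 for *Stx1a* between pan-BC and blue cones and from -0.20 to 0.01 for *Cplx3* between rods and blue cones. Between ON-BC and OFF-BC they ranged from -0.03 to 0.85 for *Cplx1*, -0.36 to 0.11 for *Snap25*, -0.45 to 0.40 for *Stx1a* and -0.32 to 0.30 for *Vamp1*. With blue and green cones as 1 level, *Stx1a* differed by 0.36 from pan-BC and *Cplx3* by 0.31 from rods. None of these was called, and the cause was not tested.

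With a replicate block over all libraries, 5, 5, 0 and 2 members were called in the 4 comparisons, with *Vamp2* gained between pan-BC and blue cones (adjusted p = 0.0275, limma), and 3, 0, 0 and 2 promoter regions. The block in ON-BC and OFF-BC alone called 0 members. Of the 53 regions, limma against 0 called 34 between pan-BC and blue cones, 15 between ON-BC and OFF-BC and 32 between rods and blue cones. It called 66171, 26416 and 37557 of all 108448 regions in these comparisons. edgeR called 22 between pan-BC and blue cones, and 9 were called between rods and blue cones without the second blue cone library. Of all 108448 regions, 49624 and 7475 were called in these 2 settings. In fits of only the libraries compared, 2 were called between ON-BC and OFF-BC and 0 between rods and blue cones, where 3894 and 0 of all 108448 regions were (8010 and 10871 in the fit of all libraries). Of the 25 partners tested, limma against 0 called 22, 20, 7 and 17 in the 4 comparisons. It called 11156, 10704, 3783 and 8068 of all 14024 genes there. Depth limits what can be said of *Cplx1*, *Cplx2* and *Stx1a* in rods, which had 0 to 22 reads a library, and pan-BC against photoreceptors cannot be told apart from study, age and mouse genotype.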
